A study of Mus musculus with 30 samples.

Results

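The genes described here are 39 genes of mitosis and the spindle: the cyclins and kinases that start mitosis, the spindle checkpoint, the kinetochore, the chromosomal passenger complex, spindle motors and the proteins that finish cell division. They were listed by name and matched to the array annotation by current or former symbol; where a gene had several probe sets with a single symbol, the one with the highest mean was used. A probe set that names only this gene was matched for 38 of the 39, out of 19938 genes on the table; Ccnb1 (cyclin B1) had none and was not analysed here. The genes were chosen by function and not by their values, but with earlier results of these arrays known.

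The samples were spleens and lymph nodes of 15 mice, 30 arrays of the Affymetrix Mouse Gene 1.0 ST type, with a spleen array and a lymph node array from each mouse. The control group was 3 FVB/N mice without the transgene. The other groups carried the Tg26 transgene, an HIV-1 provirus (pNL4-3) that lacks part of gag and pol and makes no infectious virus: 6 asymptomatic Tg26 mice and 6 Tg26 mice with lymphoma. Tg26 mice were heterozygous, all mice were of the FVB/N background, and they were killed at 5 to 12 months, with no age or sex given for each mouse. The colony that develops leukemia or lymphoma came from crossing heterozygous Tg26 mice with skin lesions, so the tumours arose within 1 colony. Arrays were labelled batch A or batch B: asymptomatic and lymphoma groups had 3 mice in each batch, and the FVB/N mice were all in batch A. The labels do not say what the batches are. The spleen array of lymphoma mouse 4 has the disease status code of the FVB/N controls, while its title and description name lymphoma; it was kept as lymphoma.

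Mitosis is driven by Cdk1 with cyclin A and cyclin B. The spindle checkpoint holds the cell until every kinetochore is attached, and the anaphase-promoting complex, with its activator Cdc20, then destroys cyclin B and securin so that chromosomes part and the cell divides. Cells that do not divide keep most of these genes off: the DREAM complex and its activating relatives, B-Myb and FoxM1, act on their promoters through a short element called CHR (cell cycle genes homology region), often with nearby CCAAT boxes bound by NF-Y. In spleen and lymph nodes, the cells known to divide include germinal centre B cells, activated T cells and, in the mouse spleen, erythroblasts. The arrays measured RNA of whole tissue, in which fewer cells of a type and less RNA per cell cannot be told apart.

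Promoter sequences are described first, though they were searched after the expression values were known. The RefSeq table of build GRCm38.p6 held 35 windows for 33 of the 39 genes, each running from 250 bases before to 50 bases after a transcription start; Foxm1, Dlgap5, Aurkb, Tpx2, Kif20a and Ccna2 were not in it. The 6 letters of CHR (TTTGAA, or TTCAAA on the other strand) occurred in 27 of the 35 windows, or 77.1%, beside 17.9% of all 32851 windows of the same length. A CHR match that began within 50 bases of the start was present in 25 windows (71.4%, beside 4.94% of all windows). CCAAT, or on the other strand its complement ATTGG, occurred in 26 windows (74.3%, beside 37.4%), and 19 windows had at least 2 of them (54.3%, beside 11.7%). Both elements stood in 23 windows, or 65.7%, beside 6.95% of all windows. The letters of CHR and of CCAAT can overlap only by a single letter at an end, and each match was counted on its own. For comparison, CHR letters were present in 39 of 76 windows of other mitosis genes (51.3%) and in 3 of 33 windows of DNA replication genes (9.09%), while at least 2 CCAAT boxes were present in 36.8% and 30.3% of them. Mean GC content was 58.9% in the windows of the mitosis genes and 53.8% over all windows. A match is a description of letters and not a site shown to be used.

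The 110 bases before the start are shown for 6 genes with these elements and for Nusap1, which has neither in its window, 5' to 3' on the strand of the gene. Capitals mark the CHR letters and the CCAAT boxes, in either orientation.
Cdc20 (activator of the anaphase-promoting complex; chr4:118437344-118437453, minus strand): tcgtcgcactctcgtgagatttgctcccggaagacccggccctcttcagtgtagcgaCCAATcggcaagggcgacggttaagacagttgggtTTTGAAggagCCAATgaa
Cdk1 (the mitotic kinase; chr10:69352913-69353022, minus strand): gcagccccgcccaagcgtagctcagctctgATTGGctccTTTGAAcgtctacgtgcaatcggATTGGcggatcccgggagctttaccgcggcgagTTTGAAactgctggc
Kif11 (the motor that pushes spindle poles apart; chr19:37376272-37376381, plus strand): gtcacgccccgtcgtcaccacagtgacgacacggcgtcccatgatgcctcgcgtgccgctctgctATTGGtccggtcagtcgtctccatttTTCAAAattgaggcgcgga
Ube2c (ubiquitin carrier of the anaphase-promoting complex; chr2:164769819-164769928, plus strand): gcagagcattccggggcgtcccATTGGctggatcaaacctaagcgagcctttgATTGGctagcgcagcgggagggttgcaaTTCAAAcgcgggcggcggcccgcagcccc
Top2a (DNA topoisomerase; chr11:99024190-99024299, minus strand): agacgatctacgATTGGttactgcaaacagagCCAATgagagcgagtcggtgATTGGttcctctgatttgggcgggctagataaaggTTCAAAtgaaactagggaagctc
Ccnb2 (cyclin B2; chr9:70421555-70421664, minus strand): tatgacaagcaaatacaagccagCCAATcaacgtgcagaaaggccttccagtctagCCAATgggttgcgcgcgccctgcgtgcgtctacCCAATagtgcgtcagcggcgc
Nusap1 (spindle protein; chr2:119618188-119618297, plus strand): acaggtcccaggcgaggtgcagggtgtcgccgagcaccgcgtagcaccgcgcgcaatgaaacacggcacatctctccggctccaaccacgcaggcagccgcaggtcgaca
Counting back from the start, the CHR match nearest to it began at -18 in Cdc20, -15 in Cdk1, -19 in Kif11, -29 in Ube2c and -23 in Top2a. In Ccnb2 the nearest CHR match began at 5, just past the start, below 3 CCAAT boxes at -87, -54 and -21. Of the 33 genes, 21 had matches to both elements and 5 had a match to neither (Birc5, Mad2l1, Melk, Nuf2 and Nusap1). Only these exact letters were searched, and only in these windows, so a gene without a match is not shown to lack the element.

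**Figure D1:**
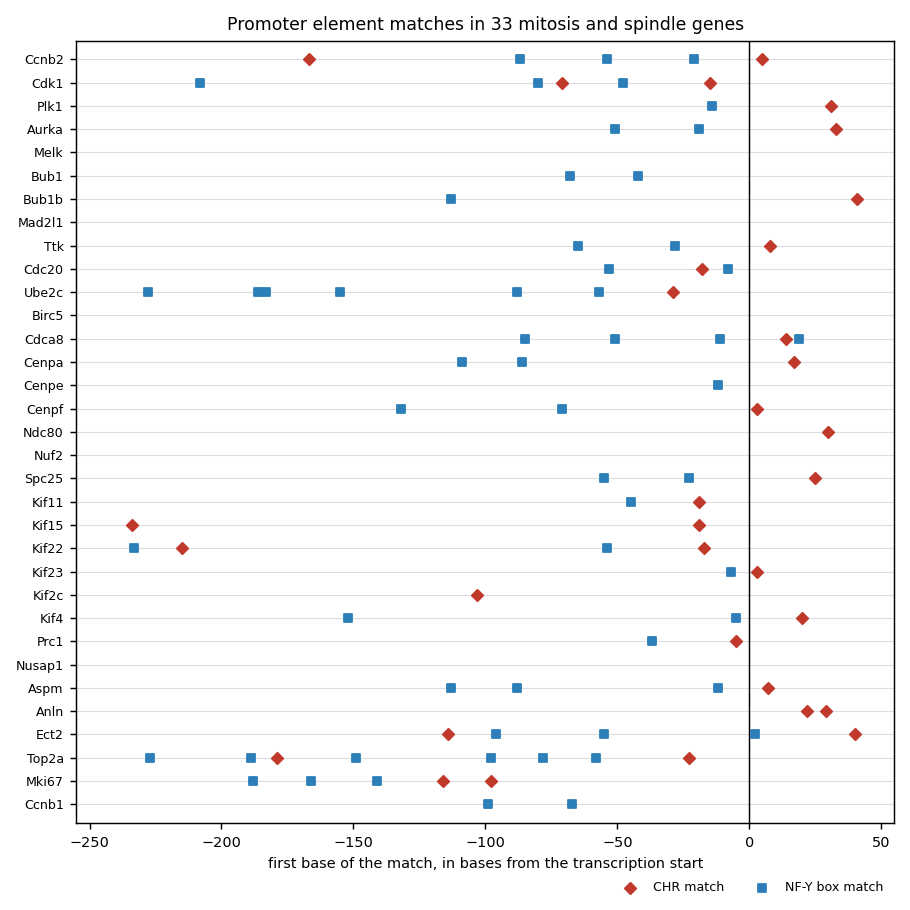
Matches of CHR letters (diamonds) and of the NF-Y box (squares) in the first promoter window of 33 genes; the x axis is the distance of the first base of a match from the transcription start, in bases, and each line is a gene. Diamonds lie mostly close to the start: 25 of the 35 windows have a CHR match within 50 bases of it.

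In lymphoma the whole group was higher. All 38 measured genes rose in lymphoma against asymptomatic Tg26 mice in the spleen, with a median fitted difference of 1.88 on the log2 scale (lowest 0.92, highest 2.39), and all 38 rose in the lymph node, with a median of 2.44 (1.505 to 3.07). A call is an adjusted p under 0.05, here and below, in a limma fit of all 30 arrays with 6 surrogate variables (unlabelled sources of variation estimated from the arrays), with Benjamini-Hochberg adjustment over 19938 genes. By the same rule 8.58% of all genes were called higher in the spleen and 11.6% in the lymph node, with medians over all genes of -0.03 and -0.02. The least certain of the calls was Ndc80 in the spleen, at an adjusted p of 0.00433. Ranked by fitted rise among all 19938 genes, 13 of the 38 stood in the first 100 places in the spleen and 19 in the lymph node, and the last of them, in the spleen, was at place 607.

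The separation was visible in single arrays. In the lymph node every lymphoma array was above every other lymph node array for all 38 genes, which held for 3.85% of all genes. In the spleen this held for 37 of the 38, beside 4.02% of all genes; the exception was Ube2c, whose lowest lymphoma value of 8.43 (mouse 5) lay under the 8.46 of asymptomatic mouse 3. The gap between the lowest lymphoma array and the highest other array was narrowest in the spleen for Nusap1 (0.0027), Cdk1 (0.046) and Mad2l1 (0.0512) and widest for Nuf2 (1.60). In the lymph node it ran from 0.169 (Ube2c) to 1.83 (Ttk).

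**Figure D2:**
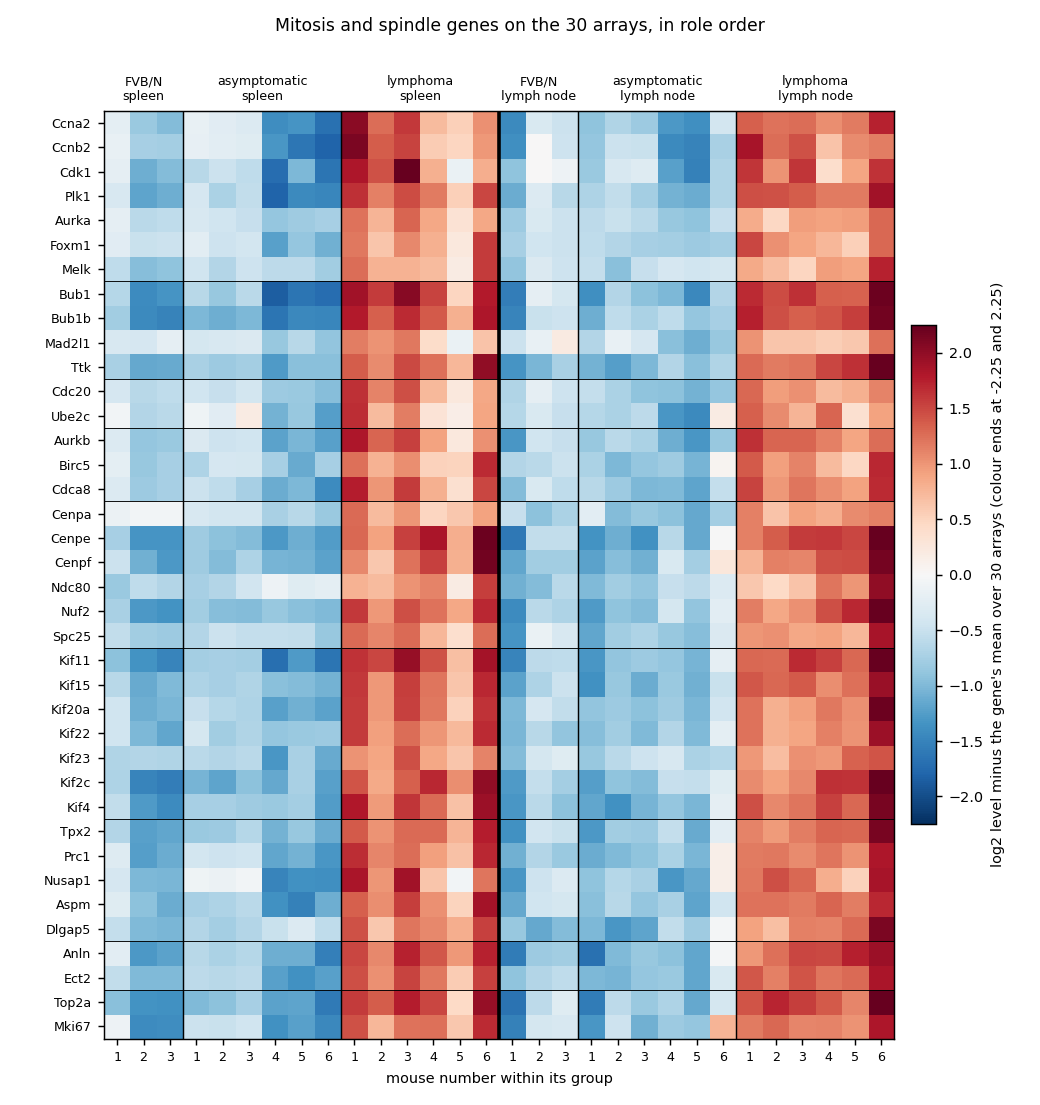
Each row is a gene, in the order of the roles described in the text with lines between roles, and each column an array; colour is the log2 level minus the mean of that gene over the 30 arrays. Both lymphoma blocks are red in nearly every cell and the FVB/N and asymptomatic blocks blue; lymphoma mouse 5 is the palest of the lymphoma spleens, and mouse 6 the darkest of the lymphoma lymph nodes.

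Levels are given on the log2 scale of the deposited table, and they are compared between arrays for a gene, never between genes. The cyclins, Cdk1 and the kinases that act at entry into mitosis come first. Ccnb2, the B-type cyclin that was measured, stood at 9.19, 8.60 and 8.59 in the 3 FVB/N spleens, at 7.54 to 9.17 (median 8.56) in the asymptomatic spleens and at 9.84 to 11.47 (median 10.52) in the lymphoma spleens. Its lymph node levels were 7.97, 9.36 and 8.88 in FVB/N, 7.84 to 8.87 (median 8.55) in asymptomatic and 9.996 to 11.21 (median 10.56) in lymphoma mice. The lymphoma arrays did not overlap the others in either tissue, and the fitted rises over asymptomatic mice were 2.07 ± 0.18 (standard error; 4.19-fold, adjusted p = 4.09e-08, limma) and 2.88 ± 0.20 (7.36-fold, adjusted p = 1.18e-09). Between group means without surrogate variables the lymph node rise of Ccnb2 was smaller, 2.16. Ccna2, the cyclin A of dividing cells, rose by 2.02 ± 0.25 and 2.84 ± 0.27. Cdk1, their partner kinase, had a wider spread: it reached 6.71 to 7.62 in FVB/N spleens, 6.11 to 7.33 in asymptomatic spleens and 7.66 to 10.21 (median 8.94) in lymphoma spleens. Its rises were 1.97 ± 0.31 (adjusted p = 6.41e-05) and 2.49 ± 0.34 (adjusted p = 7.95e-06). The lowest Cdk1 value among lymphoma spleens, in mouse 5, was only just above the highest control. Plk1, a kinase of mitotic entry and spindle assembly, rose by 2.05 ± 0.21 and 2.47 ± 0.24. Aurka, the kinase of the spindle poles, rose less (1.43 and 1.75), as did Foxm1, a transcription factor of late cell cycle genes (1.27 and 1.74), and Melk, a kinase of dividing cells (1.08 ± 0.22 and 1.505 ± 0.24). In the spleen Melk stood at 1.64 without lymphoma mouse 5, and Foxm1 at 1.93 within batch B.

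The spindle checkpoint held both the widest and some of the smallest changes. Bub1, a checkpoint kinase of the kinetochore, was at 7.07, 6.29 and 6.38 in FVB/N spleens, 5.86 to 7.11 (median 6.46) in asymptomatic spleens and 8.20 to 9.77 (median 9.39) in lymphoma spleens. In lymph nodes it was at 6.16, 7.51 and 7.31, at 6.26 to 7.06 (median 6.75) and at 9.05 to 9.91 (median 9.26). No lymphoma array came within 1 log2 unit of the others, and the fitted rises were 2.38 ± 0.27 (5.21-fold, adjusted p = 9.24e-07) and 3.07 ± 0.30 (8.42-fold, adjusted p = 5.55e-08), the largest of the group in lymph node. Bub1b, the BubR1 part of the checkpoint inhibitor of Cdc20, rose by 2.38 ± 0.21 and 2.65 ± 0.23. Ttk, the kinase that starts checkpoint signalling, had the cleanest separation in lymph nodes: 5.51, 5.79 and 6.10 in FVB/N, 5.59 to 6.17 in asymptomatic and 8.001 to 9.26 in lymphoma mice. Its rises were 1.95 ± 0.25 and 2.51 ± 0.27. Mad2l1, the Mad2 protein of the same inhibitor, was already at 8.825 to 9.002 in FVB/N spleens and reached 9.05 to 10.39 in lymphoma spleens, so that its groups nearly touched. It rose by 1.03 ± 0.20 (adjusted p = 0.000646) in the spleen and by 1.52 ± 0.22 in the lymph node.

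The partners of the anaphase-promoting complex rose too. Cdc20, its activator and the target of the checkpoint, was at 7.79, 7.54 and 7.60 in FVB/N spleens, at 7.22 to 7.76 in asymptomatic spleens and at 8.40 to 9.82 (median 9.16) in lymphoma spleens. The fitted rises were 1.503 ± 0.15 (2.83-fold, adjusted p = 2.28e-07) and 1.95 ± 0.17 (3.87-fold, adjusted p = 1.21e-08). Ube2c, which starts ubiquitin chains for the complex, ranged widely among asymptomatic mice, from 7.04 to 8.46 in the spleen and from 6.85 to 8.47 in the lymph node, beside 8.43 to 9.95 and 8.64 to 9.62 in lymphoma. Its groups overlapped slightly in the spleen, with rises of 1.36 ± 0.26 (adjusted p = 0.000496) and 2.19 ± 0.28 (adjusted p = 3.55e-06).

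Of the chromosomal passenger complex, which corrects faulty attachments and later guides cell division, Aurkb (the kinase), Birc5 (survivin) and Cdca8 (borealin) were measured. Aurkb stood at 7.96 to 8.86 in asymptomatic spleens and 9.43 to 11.01 in lymphoma spleens, and at 7.88 to 8.58 and 10.06 to 10.83 in lymph nodes. All its lymphoma arrays were above all others, and it rose by 1.68 ± 0.16 (adjusted p = 9.89e-08) and 2.49 ± 0.18 (adjusted p = 1.18e-09). Birc5 rose by 1.47 ± 0.25 and 1.88 ± 0.27, and Cdca8 by 1.84 ± 0.22 and 2.30 ± 0.24.

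Among genes of the centromere and kinetochore, the motor Cenpe, which carries chromosomes to the spindle equator, rose by 2.21 ± 0.27 and 2.79 ± 0.30. Cenpf, a large kinetochore protein, rose by 1.99 ± 0.29 and 2.19 ± 0.32, and Cenpa, the histone that marks the centromere, by 1.54 ± 0.14 and 1.71 ± 0.15. Ndc80, Nuf2 and Spc25 are subunits of the complex by which kinetochores hold microtubules, and their fitted differences were of unequal size. Nuf2 was at 6.31, 5.75 and 5.71 in FVB/N spleens, at 6.05 to 6.27 in asymptomatic spleens and at 7.91 to 8.74 in lymphoma spleens, and rose by 2.02 ± 0.24 and 2.52 ± 0.27. Ndc80 was at 6.74, 7.02 and 6.93, at 6.84 to 7.46 and at 7.77 to 9.13, and had the smallest fitted rise of the 38 in the spleen, 0.92 ± 0.22 (1.89-fold), with 1.51 ± 0.24 in the lymph node. Between group means without surrogate variables the spleen value was 1.30, and Mad2l1 was lower (1.28). The Ndc80 value in the spleen was 1.53 without lymphoma mouse 5 and 1.45 in batch A alone, and passed in both. Spc25 rose by 1.25 ± 0.20 and 2.19 ± 0.22. The differences between these subunits were not tested.

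All 7 kinesin motors rose in both tissues. Kif11, the motor that drives spindle poles apart, was at 7.59, 7.19 and 7.03 in FVB/N spleens, at 6.83 to 7.78 (median 7.50) in asymptomatic spleens and at 9.20 to 10.49 (median 10.09) in lymphoma spleens. In lymph nodes it was at 7.04, 7.93 and 7.96, at 7.22 to 8.32 and at 9.79 to 10.78. Its fitted rise was 2.39 ± 0.27 (5.24-fold, adjusted p = 9.12e-07) in the spleen, next to 2.38 for both Bub1 and Bub1b, and 2.83 ± 0.30 in the lymph node. Between group means without surrogate variables the spleen values were 2.66 for Kif11, 2.77 for Bub1 and 2.75 for Bub1b. Kif2c, which removes faulty microtubule attachments, rose by 2.15 ± 0.23 and 2.45 ± 0.25, and Kif4, a motor of chromosome arms, by 1.94 ± 0.24 and 2.74 ± 0.27. Kif15, which backs up Kif11, rose by 1.87 and 2.60. Kif20a and Kif23, motors of the division plane, rose by 1.80 and 2.22 and by 1.75 and 1.93, and Kif22, which pushes chromosome arms outward, by 1.70 and 2.12.

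**Figure D3:**
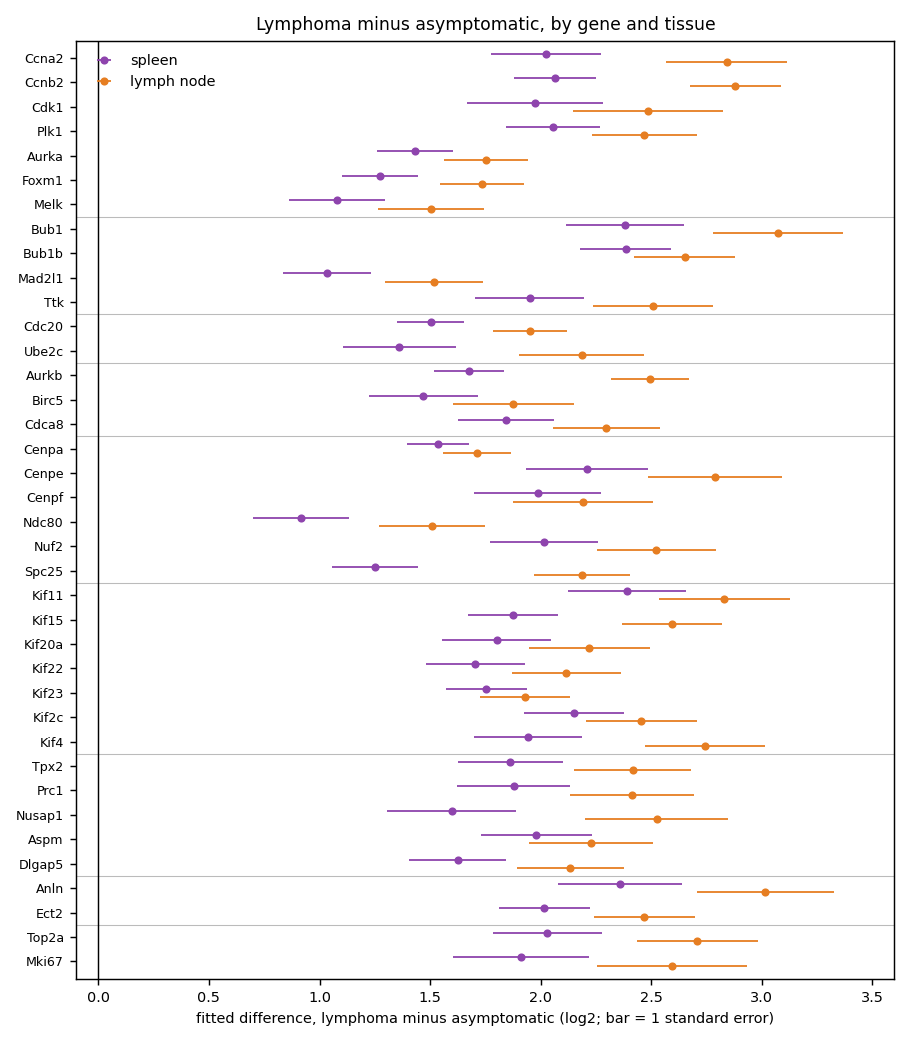
Fitted difference between lymphoma and asymptomatic mice for each of the 38 genes, in role order from the top, with bars of 1 standard error; purple is spleen and orange lymph node. Every point is to the right of 0, from 0.92 (Ndc80, spleen) to 3.07 (Bub1, lymph node), and the orange points lie to the right of the purple ones.

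All 5 spindle-associated proteins rose. Tpx2, which nucleates microtubules near chromatin, rose by 1.86 ± 0.24 and 2.42 ± 0.26; Prc1, which bundles microtubules at the midzone, by 1.88 ± 0.25 and 2.41 ± 0.28; Aspm, of the spindle poles, by 1.98 ± 0.25 and 2.23 ± 0.28; and Dlgap5, which stabilises spindle fibres, by 1.63 ± 0.22 and 2.13 ± 0.24. Nusap1, a microtubule-bundling protein and the gene without promoter matches shown above, was at 7.78, 7.15 and 7.13 in FVB/N spleens, at 6.69 to 8.10 in asymptomatic spleens and at 8.10 to 10.05 (median 9.26) in lymphoma spleens. Its asymptomatic values ran up to the lowest lymphoma value, and it rose by 1.60 ± 0.29 (adjusted p = 0.000379) and 2.53 ± 0.32 (adjusted p = 3.1e-06). Anln, the anillin scaffold of the cleavage furrow, was at 7.09, 6.04 and 6.13, at 5.79 to 6.70 and at 8.30 to 9.06 in the spleen, and rose by 2.36 ± 0.28 and 3.02 ± 0.31. Ect2, which acts at the furrow, rose by 2.02 ± 0.21 and 2.47 ± 0.23.

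Top2a and Mki67 act on the chromosomes themselves. Top2a, which untangles DNA before chromosomes part, was at 8.11, 7.69 and 7.68 in FVB/N spleens, at 7.44 to 8.29 in asymptomatic spleens and at 9.493 to 10.9998 in lymphoma spleens, and rose by 2.03 ± 0.25 and 2.71 ± 0.27. Mki67, the Ki-67 protein that coats mitotic chromosomes and is used as a marker of dividing cells, was at 9.59, 8.29 and 8.30 in FVB/N spleens, at 8.25 to 9.26 in asymptomatic spleens and at 10.31 to 11.39 in lymphoma spleens. In lymph nodes it was at 8.17, 9.31 and 9.35, at 8.39 to 10.47 and at 10.71 to 11.52. The asymptomatic lymph node at 10.47 was that of mouse 6 and came close to the lymphoma arrays. Mki67 rose by 1.91 ± 0.31 (adjusted p = 8.83e-05) and 2.59 ± 0.34 (adjusted p = 4.22e-06), the latter 1.62 within batch B.

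Against FVB/N mice the same lymphoma arrays gave similar values. All 38 genes were called higher in lymphoma in the spleen (median 1.96, range 0.93 to 2.62; 7.1% of all genes were called higher) and in the lymph node (median 2.19, range 1.16 to 2.98; 8.59% of all genes). This comparison has the lymphoma arrays in common with the one against asymptomatic mice. Without FVB/N mouse 3 or without lymphoma mouse 1, Ndc80 in the spleen was no longer called (0.85 and 0.76); without lymphoma mouse 5 it stood at 1.55 and Melk at 1.87.

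Genes with and without the CHR letters both rose. The 25 measured genes with a CHR match had median rises of 1.94 in the spleen and 2.45 in the lymph node, and the 7 without had 1.60 and 2.52, with overlapping ranges (0.92 to 2.39 and 1.03 to 2.38 in the spleen). Bub1, in the group without CHR letters, had the largest rise of all in the lymph node.

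No call on these genes told asymptomatic Tg26 from FVB/N mice. None of the 38 was called in the spleen (median difference 0.09, range -0.30 to 0.49; 0.617% of all genes were called in either direction) or in the lymph node (median -0.23, range -0.43 to 0.10; 1.94% of all genes) in the limma fit. At an unadjusted p under 0.05 there was 1 gene in the spleen, Cenpa (-0.30 ± 0.14), and 0 in the lymph node. Cenpa, looked at after that p was seen, was at 9.39 to 9.46 in the 3 FVB/N spleens, all of batch A. The 6 asymptomatic spleens lay below them, at 9.10 to 9.15 in batch A and at 8.69 to 8.90 in batch B. The share of all genes separated in this way was not computed. With standard errors of up to 0.30 and 0.33 and only 3 FVB/N mice, differences of the size seen in lymphoma would stand out and smaller ones might not. The sign of the median depended on the fit, with 0 genes called in each. In the spleen it was 0.24 in batch A alone and -0.03 without surrogate variables. In the lymph node these fits gave -0.15 and -0.08, and batch with levels of neighbouring-tissue markers as covariates gave 0.07.

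Within the groups the arrays differed by mouse. The mean level of the 38 genes was 7.55, 7.02 and 7.02 in FVB/N spleens, 6.83 to 7.44 in asymptomatic spleens and 8.52 to 9.52 in lymphoma spleens; in lymph nodes it was 6.87, 7.51 and 7.48, 6.97 to 7.66 and 9.07 to 9.82. Asymptomatic spleens of batch A lay at 7.38 to 7.44 and those of batch B at 6.83 to 7.01, with no overlap. FVB/N mouse 1 had the highest spleen and the lowest lymph node of its group. Lymphoma mouse 5 had the lowest spleen value of 34 of the 38 genes, and lymphoma mouse 6 the highest lymph node value of 33. Lymphoma stood apart within each batch: fitted in batch A alone, all 38 genes were called higher in spleen (median 1.92) and lymph node (2.07), and in batch B alone likewise (2.21 and 2.14).

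**Figure D4:**
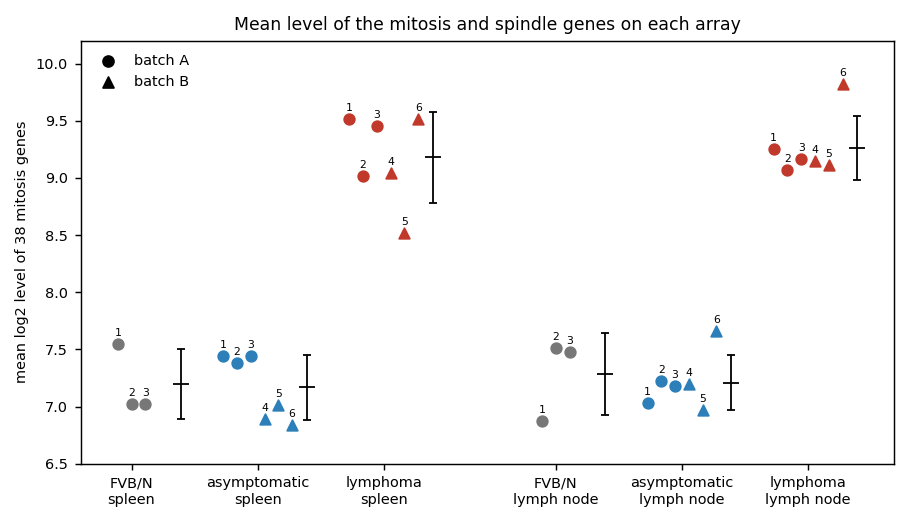
Mean log2 level of the 38 genes on each of the 30 arrays, by group; numbers are mouse numbers, circles are batch A and triangles batch B, and the bar beside each group is its mean with 1 SD. The lymphoma arrays, from 8.52 to 9.82, are all above the other arrays, which reach 7.66.

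The size of the change did not differ detectably between tissues. The difference of the rises, lymph node minus spleen, was called for 0 of the 38 genes in the limma fit (9 at an unadjusted p under 0.05; 0.572% of all genes were called), although all 38 fitted differences were positive, with a median of 0.51. The strongest were Aurkb (0.82 ± 0.22, adjusted p = 0.0896) and Spc25 (0.94 ± 0.27, adjusted p = 0.117). Between group means without surrogate variables the median rise was 2.07 in the spleen and 2.06 in the lymph node, and the median difference of the rises 0.03, or 0.10 with batch and neighbouring-tissue levels as covariates, so the larger rise in lymph nodes rests on the surrogate variables. Within lymphoma mice the tissues differed for 0 genes (0 at an unadjusted p under 0.05; 0.0552% of all genes called), and within FVB/N mice for 0 (2 at an unadjusted p under 0.05; 4.27% of all genes).

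In asymptomatic mice 3 genes were called lower in lymph node than in spleen, beside 2.26% of all genes: Ccnb2 (-0.78), Aurkb (-0.71) and Spc25 (-0.88). The measured group means differed by only -0.01, -0.12 and -0.19, and without surrogate variables, or within either batch, 0 genes were called. Without asymptomatic mouse 6 there were 8, and without asymptomatic mouse 4, FVB/N mouse 1 or FVB/N mouse 2 there were 0. From spleen to lymph node of the same mouse, the mean of the 38 genes moved by 0.59 in lymphoma mouse 5 (37 genes higher in the lymph node) and by 0.82 in asymptomatic mouse 6 (37 genes), but by -0.67 in FVB/N mouse 1 (0 genes), so its sign varied between mice.

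Several arrays stood apart in markers of other tissues. Asymptomatic mouse 6, whose lymph node was the highest of its group for 25 of the 38 genes, also had there the highest mean of spleen markers of all 30 arrays (9.45, beside 6.51 to 7.35 in the other asymptomatic lymph nodes), erythroblast markers at 9.18 and exocrine pancreas markers at 13.50. Pancreas markers were also at 12.28 in the lymph node of asymptomatic mouse 5, at 8.89 in that animal's spleen and at 7.69 in the spleen of asymptomatic mouse 4, beside 5.86 to 7.01 on the other arrays. The spleen of lymphoma mouse 4 had spleen markers at 6.23, beside 7.14 to 7.998 in the other lymphoma spleens and 6.06 to 6.80 in lymphoma lymph nodes. Lymph node markers were at 7.29 to 8.83 in FVB/N, 7.20 to 9.03 in asymptomatic and 6.00 to 7.02 in lymphoma lymph nodes. Salivary gland markers reached 10.16 and 8.83 in the lymph nodes of FVB/N mice 2 and 3. The node of asymptomatic mouse 3 had them at 8.98, asymptomatic mouse 2 at 7.89 and lymphoma mouse 5 at 6.63. The rest of the lymph nodes had them at 4.92 to 5.28. Adipose and muscle markers were at 6.66 to 10.22 in asymptomatic, 6.10 to 8.81 in FVB/N and 6.07 to 6.41 in lymphoma lymph nodes. With both mice (asymptomatic 6 and lymphoma 4) left out, all 38 genes were called higher in both tissues, with medians of 1.75 and 2.32; with batch and the levels of these neighbouring tissues as covariates, again all 38, with medians of 2.14 and 2.20.

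Markers of other dividing cells were set beside the mitosis genes. The mean of the erythroblast markers was 8.73, 7.56 and 7.53 in the FVB/N spleens, where the mitosis gene means were 7.55, 7.02 and 7.02. Asymptomatic spleens had erythroblast markers at 8.38 to 8.49 in batch A and at 7.37 to 7.79 in batch B, and the mitosis gene means were higher in batch A in the same way. Over the lymphoma spleens the erythroblast markers ran from 6.34 to 9.89, and the lymphoma spleens with the lowest markers (mouse 4 at 6.34, mouse 6 at 6.93) had mitosis gene means of 9.05 and 9.52. Granulocyte precursor markers were at 8.60, 7.67 and 7.77 in FVB/N spleens, at 7.35 to 8.05 in asymptomatic spleens and at 6.65 to 9.89 in lymphoma spleens, with the highest value in mouse 1 and the lowest in mouse 4. Germinal centre markers stood at 7.04, 8.39 and 8.03 in FVB/N lymph nodes, where the mitosis gene means were 6.87, 7.51 and 7.48, and at 6.11 to 6.90 in lymphoma lymph nodes. Among asymptomatic lymph nodes the order ran the other way at the ends: mouse 6 had the lowest germinal centre mean (7.02) and the highest mitosis gene mean (7.66), and mouse 1 had the highest (7.84) beside a mitosis gene mean of 7.03. The lymph node of mouse 6 is the array with erythroblast markers at 9.18, spleen markers at 9.45 and pancreas markers at 13.50.

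Over all genes, 7.25% were called lower in lymphoma against asymptomatic mice in the spleen and 12.5% in the lymph node. Of 6 germinal centre markers, 0 rose and 4 fell in lymphoma lymph nodes; 1 fell without asymptomatic mouse 1, and 2 fell without asymptomatic mouse 4 or without lymphoma mouse 1. Of 8 mature B cell markers, 0 rose and 5 fell in the spleen, and 2 rose and 5 fell in the lymph node. Their spleen mean ran from 10.90 to 11.46 in asymptomatic and from 8.58 to 10.22 in lymphoma mice. Over 29 alternatives the number of them called lower ran from 4 to 6 in the spleen and from 1 to 5 in the lymph node. The number called higher in the lymph node ran from 1 to 2. Of 14 T cell markers, 14 fell in both tissues, while of 12 B precursor markers 9 rose in the spleen and 8 in the lymph node, 1 falling in each. The B precursor marker mean was at 7.08 to 7.40 in asymptomatic and 9.02 to 9.77 in lymphoma spleens, the markers Igll1 and Rag1 rising by 4.76 and 4.83, while Dntt was at 5.53 and 5.82. The part of these cell types in the mitosis gene values was not tested.

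**Figure D5:**
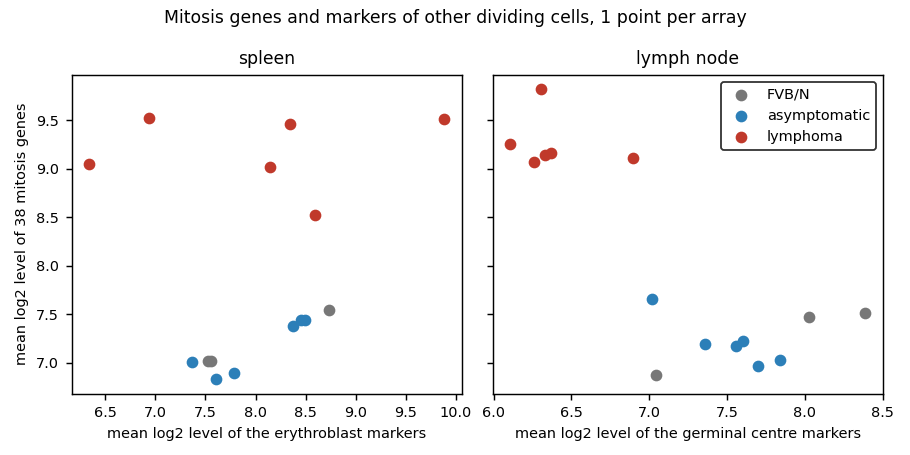
Mean level of the 38 mitosis genes (y, log2) against the mean of erythroblast markers in the spleens (left) and of germinal centre markers in the lymph nodes (right); each point is an array, coloured by group. Lymphoma arrays are all above 8.5. In the spleens their markers (6.34 to 9.89) span the range of the other arrays. In the lymph nodes their markers (6.11 to 6.90) lie below those of all other arrays (7.02 to 8.39), so no marker level is shared. Of the spleens without lymphoma, the 4 with erythroblast markers of 8.38 or more have higher mitosis gene means (7.38 to 7.55). The other 5 are at 6.83 to 7.02, and among them the order does not follow the markers.

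Other genes of cell division were counted from lists chosen by function. Of 79 further mitosis genes, 71 rose and 0 fell in lymphoma against asymptomatic spleens (median 1.33), and 75 rose and 0 fell in lymph nodes (median 1.74). The most certain were Cenpn and Cenph, of the inner kinetochore, Arhgap11a, Kif18b, a kinesin, and Shcbp1. Cenpn rose by 1.81 and 2.62 and Arhgap11a by 1.69 and 2.45. Smc4, of condensin, did not pass (0.05 and 0.44). In the lymph node Smc4 was called higher under several alternatives, among them 3 surrogate variables, median centring, and leaving out asymptomatic mouse 6 or FVB/N mouse 2. Of 34 DNA replication genes, 31 rose in the spleen (median 1.09) and 33 in the lymph node (median 1.46), among them Chaf1a, a histone chaperone subunit (1.38 and 1.76), Gins1, of the replicative helicase (1.77 and 2.35), and Rrm2, of ribonucleotide reductase (2.00 and 2.75). Of 10 G1 cyclins and kinases, 8 rose in each tissue, including Ccnd3 (1.17 and 0.89), Cdk6 (1.87 and 1.40) and Ccne2 (1.65 and 2.15). Ccnd1 and Ccnd2 did not pass.

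Machinery that is present through the cycle had smaller median differences; the difference between lists was not tested. Beside the counts that follow stand the shares over all genes, 8.58% called higher and 7.25% lower in the spleen, and 11.6% and 12.5% in the lymph node. Of 16 genes of the anaphase-promoting complex core and its cofactors, 4 rose in the spleen and 7 in the lymph node, with medians of 0.17 and 0.29: Ube2s, which extends ubiquitin chains (0.73 and 1.07), Fzr1, the activator used after anaphase (0.43 and 0.91), and Anapc5 (0.44 and 0.73) passed in both, and Anapc11 fell by 0.38 in the lymph node. Of 12 cohesin genes, 2 rose and 1 fell in the spleen, and 4 rose and 2 fell in the lymph node; Esco2, the acetyltransferase of S phase, rose by 1.73 and 2.50, and Esco1 fell by 0.52 and 0.49. Wapl, which releases cohesin, fell by 0.68 in the lymph node. A further 27 genes were relatives of the mitotic genes that are not specific to mitosis, such as transport kinesins and other cyclins. Of these 27, 2 rose and 3 fell in the spleen, and 1 rose and 7 fell in the lymph node. Kif2a rose by 1.52 and 1.44, while the transport kinesin Kif1b fell by 1.02 and 1.91 and Kif21b by 0.74 and 1.31. The share of these relatives called higher was no larger than over all genes.

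Of 23 transcription factors of the cell cycle, including the DREAM subunits, 10 rose and 1 fell in the spleen, and 11 rose and 1 fell in the lymph node. E2f8, a repressor made in S phase, rose by 1.87 and 2.91; E2f3, an activator, by 1.20 and 1.70; Tfdp1, the partner of E2F proteins, by 1.00 and 1.46; and Mybl2, which is B-Myb, by 1.24 and 2.02. Rbl2, the p130 pocket protein of DREAM in resting cells, fell by 0.78 in each tissue. Of 19 inhibitors and genes of quiescence, 2 rose and 2 fell in the spleen, and 2 rose and 3 fell in the lymph node. Cdkn2c, an inhibitor of Cdk4 and Cdk6, rose by 0.98 and 1.24; Tob1, an antiproliferative factor, fell by 0.51 and 0.60; and Klf2, a factor of resting lymphocytes, fell by 0.89 in the lymph node. With the mouse as a random block the spleen counts of this last list were 1 and 1.

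The counts of these smaller lists moved with the processing. Over 29 alternatives the number called higher ran from 2 to 9 in the spleen and 5 to 11 in the lymph node for the anaphase-promoting complex core, from 1 to 6 and 2 to 7 for cohesin, and from 8 to 16 and 9 to 15 for the transcription factors. The number called lower ran from 2 to 9 and 4 to 8 for the relatives of mitotic genes, and from 0 to 7 and 2 to 5 for the inhibitors. Single mice decided several calls of genes named above. In the spleen, Anapc5 did not pass without asymptomatic mouse 2 (0.42), FVB/N mouse 3 (0.35), lymphoma mouse 1 (0.37) or lymphoma mouse 3 (0.33), and Fzr1 without FVB/N mouse 3 (0.42) or lymphoma mouse 1 (0.38). Tob1 did not pass there without asymptomatic mouse 3 (-0.46) or lymphoma mouse 1 (-0.37), and Esco1 without lymphoma mouse 2 (-0.45). In the lymph node, Esco1 did not pass without asymptomatic mouse 1 (-0.40) or without lymphoma mouse 1 (-0.22), 2 (-0.35) or 6 (-0.39), and Anapc11 (-0.25) and Wapl (-0.64) without asymptomatic mouse 1. Without surrogate variables the lymph node calls of Klf2 (-0.35), Esco1 (-0.35) and Anapc11 (-0.21) were lost.

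Within groups the 38 genes moved together from array to array. Over the 30 arrays, with the group mean taken off, the Pearson correlation of each gene with the mean of the others had a median of 0.82, from 0.39 (Cenpa) to 0.95 (Kif20a). The 10 genes outside the list that followed its mean most closely, again over 30 arrays as deviations from group means and with no test, were Fancd2 (0.96), Sgo1 (0.93), Ncapg (0.92), Knl1 (0.92), Iqgap3 (0.92), Ncaph (0.91), Kif18b (0.91), Kntc1 (0.91), Parpbp (0.90) and Neil3 (0.90). Most are mitosis genes of the further list; Fancd2 and Neil3 are DNA repair genes. The arrays of a mouse and of a batch have that source in common.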

How the data were processed

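RNA of 30 tissue samples was hybridised to Affymetrix Mouse Gene 1.0 ST arrays. The values are log2 expression levels per probe set, normalised with frozen robust multiarray analysis (fRMA) by the authors, per the design text deposited with the series; software versions are not given in the sources used here. Of 35556 probe sets with values, 21789 carried 1 symbol in the platform annotation, 1621 several and 12146 were not listed or had no symbol. Symbols were updated through Entrez identifiers, and the probe set with the highest mean was kept for each of 19938 genes. Such summaries compress differences of dim probe sets, and signal over background was not assessed.

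Groups came from titles and descriptions. Differences were fitted with limma 3.58.1 in R 4.3.3 over all 30 arrays, with 6 groups and 6 surrogate variables (number set by 20 permutations at a p limit of 0.1, then 5 iterations), Benjamini-Hochberg adjustment over all genes and calls at 0.05; the code was tested on simulated data. In the main fit p-values measure the spread of arrays that is left after group and surrogate variables, with both arrays of a mouse taken as independent. The same mouse gave both tissues. The arrays of a mouse correlated by 0.118, a consensus over genes after the group means and the 6 surrogate variables were taken off. Their correlation around group means alone was not computed. The mouse as a block was an alternative. Others were no or 3 surrogate variables, batch as a term, each batch alone, neighbouring-tissue covariates, quantile normalisation, centring each array on its median, the mean of a gene's probe sets, a robust variance trend, a filter on low values (log2 level 6), leaving out each mouse or the array with the conflicting code and, chosen after seeing the data, leaving out asymptomatic mouse 6 with lymphoma mouse 4.

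The mitosis genes, other lists and markers were chosen with earlier results of these data known, so they are no independent support. Named genes were all measured mitosis genes, from each other pathway list up to 4 with the smallest adjusted p and up to 4 that passed against its majority, and the 10 most correlated genes; further list members and markers were named after their values were seen.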

Additional observations from a re-analysis of the deposited data

Results flagged for a closer look

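Among 156 groups of 6 arrays (the 38 genes and their mean in each group of asymptomatic or lymphoma mice), 16 had an array whose distance from its nearest neighbour was beyond Dixon's 95% limit; chance alone gives about 1 in 20, and the genes are not independent of each other. Most were the lymph node of lymphoma mouse 6, the highest of its group for Melk (8.65), Ttk (9.26), Spc25 (9.12), Kif20a (10.13), Kif22 (9.61), Tpx2 (10.07), Prc1 (9.52), Aspm (8.82), Mki67 (11.52) and the mean of the 38 genes (9.82).

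The lymph node of asymptomatic mouse 6 was far above its group for Birc5 (7.28), Prc1 (7.84) and the mean of the 38 genes (7.66), and this array also held the spleen, erythroblast and pancreas markers given in the report. The spleen of the same mouse was the lowest of its group for Kif4 (5.81). The spleen of lymphoma mouse 5 was the lowest of its group for Bub1 (8.20), and the lymph node of asymptomatic mouse 2 the lowest for Melk (5.98).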

How the results depend on the processing

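In lymphoma against asymptomatic mice, all 38 genes were called higher in both tissues under every alternative run, and the gene values without any 1 mouse ran from 0.75 to 2.72 in the spleen and from 1.32 to 3.47 in the lymph node. Against FVB/N mice the same held except for Ndc80 in the spleen, at 0.85 without FVB/N mouse 3 and 0.76 without lymphoma mouse 1. In asymptomatic against FVB/N mice 0 genes were called under every alternative. Against FVB/N without surrogate variables, Ndc80 in the spleen was at 1.58 and Ccnb2 and Cdk1 in the lymph node at 1.85 and 1.53. With the mouse as a random replicate block, which pairs the tissues of an animal, the counts were 38 and 38 for lymphoma against asymptomatic mice, with medians of 1.88 and 2.49, and no call on these 38 genes changed in any comparison. Of the 178 genes of the other lists called in the spleen, 3 were lost (Ccng2, Cdkn1c and Cidea), and of the 214 called in the lymph node 0.

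The comparisons between tissues were less stable. For the tissue difference of the lymphoma rise, 1 gene was called after quantile normalisation, 2 with the filter on low values, and 0 to 2 without 1 mouse (2 without asymptomatic mouse 6). Between FVB/N tissues 1 gene was called with batch as a term and 1 with the mouse as a fixed replicate block, and 0 to 1 without 1 mouse (1 without asymptomatic mouse 5). Between asymptomatic tissues, the 3 calls became 0 without surrogate variables, with 3 of them, with batch as a term, with tissue covariates, in batch A or batch B alone and with the mouse as a fixed replicate block; they became 5 after quantile normalisation, 1 without the array with the conflicting code, and 0 to 8 without 1 mouse. In batch B alone, Ccnb2 (0.36) and Aurkb (0.062) reversed; the cause was not tested.

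Limits: FVB/N mice number 3 and lie in batch A, so batch cannot be weighed within them. With 3 or 6 mice a group, small differences between asymptomatic and FVB/N mice can be missed. The arrays give RNA levels of whole tissue.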
